A study of Mus musculus with 9 samples.

Results

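The transcripts described are those of 10 genes, the 4 Id genes (Id1, Id2, Id3 and Id4) and 6 Smad genes (Smad1, Smad3, Smad5, Smad6, Smad7 and Smad9), taken by symbol from the 21958 genes of the deposited table. All 10 passed the low-count filter that left 13013 genes for testing. The study sequenced RNA of cultured periosteal progenitors from the mouse mandible, cells of the membrane around the jaw bone, in 9 libraries. Control cells came from Plagl1 fl/fl mice, in which Plagl1, an imprinted zinc-finger transcription factor gene, carries loxP sites but is intact. There were 3 control libraries without induction (day 0) and 3 after 3 days with dexamethasone (100 nM), ascorbic acid (50 ug/ml) and b-glycerophosphate (5 mM), a mixture that drives osteoblast formation. The 3 mutant libraries were from CTSK-iCre;Plagl1 fl/fl cells after the same 3 days, so every group carried the floxed allele and the mutant alone carried Cre. Cre is driven there by the promoter of Ctsk, a gene used in osteoclasts and in periosteal progenitors, and cells in which Cre did not act keep Plagl1. There was no mutant group at day 0, and the labels used here give neither the age nor the sex of the animals.

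Bone morphogenetic proteins (BMPs) and the TGF-beta and activin ligands bind receptor kinases that phosphorylate the receptor-regulated Smads. SMAD1, SMAD5 and SMAD9 carry the BMP signal and SMAD3, like its relative SMAD2, the TGF-beta and activin signal; each joins SMAD4 and enters the nucleus. SMAD6 and SMAD7 are inhibitory Smads that act back on the receptors and are themselves induced by the pathway. ID proteins have a helix-loop-helix domain but no basic DNA-binding region, so they bind E proteins and other basic helix-loop-helix (bHLH) factors and keep them off DNA. Id1, Id2 and Id3 are classical BMP target genes. BMP signalling promotes osteoblast formation, while SMAD3 is known to repress the osteoblast factor RUNX2, and in the mouse ID4 has been described as favouring osteoblast over adipocyte formation.

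The 250 bases before the transcription start are shown for the 3 Id genes that changed on induction in different directions, Id2, Id3 and Id4, and for Smad3, which was lower in each of the 3 contrasts. The sequences are from RefSeq (GRCm38.p6) and run 5′ to 3′ on the gene's strand. They are Id2 at chr12:25096093-25096342 on the minus strand, Id3 at chr4:136143572-136143821 on the plus strand, Id4 at chr13:48260866-48261115 on the plus strand and Smad3 at chr9:63757995-63758244 on the minus strand. Capitals mark GGCGCC, a GC-rich element that the BMP Smads can bind and that reads the same on the opposite strand.
Id2: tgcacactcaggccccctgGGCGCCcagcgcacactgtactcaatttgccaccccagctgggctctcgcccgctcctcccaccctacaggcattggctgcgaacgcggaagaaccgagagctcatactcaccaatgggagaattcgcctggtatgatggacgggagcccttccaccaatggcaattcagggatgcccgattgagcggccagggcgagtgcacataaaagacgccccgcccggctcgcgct
Id3: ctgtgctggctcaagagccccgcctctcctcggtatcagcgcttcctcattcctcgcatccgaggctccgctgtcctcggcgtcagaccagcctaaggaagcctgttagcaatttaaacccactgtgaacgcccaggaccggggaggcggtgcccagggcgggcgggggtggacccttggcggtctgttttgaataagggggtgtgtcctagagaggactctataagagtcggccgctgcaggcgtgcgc
Id4: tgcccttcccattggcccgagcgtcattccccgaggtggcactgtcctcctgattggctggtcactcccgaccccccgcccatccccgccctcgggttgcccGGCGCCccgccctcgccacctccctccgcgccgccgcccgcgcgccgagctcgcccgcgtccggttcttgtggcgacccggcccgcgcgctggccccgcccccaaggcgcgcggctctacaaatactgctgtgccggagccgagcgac
Smad3: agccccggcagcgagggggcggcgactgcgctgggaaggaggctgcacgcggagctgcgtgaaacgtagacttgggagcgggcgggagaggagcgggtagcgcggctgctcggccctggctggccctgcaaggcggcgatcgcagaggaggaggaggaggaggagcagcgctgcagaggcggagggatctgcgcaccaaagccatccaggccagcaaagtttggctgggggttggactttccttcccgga
GGCGCC stood 231 bases before the start of Id2 and 148 before that of Id4. Of the 8 members with a promoter in the RefSeq table, 4 held it in this window, the others being Smad9 and Smad5 (at 1 of its 3 listed starts). It occurred in 9.59% of all 32851 promoter windows of this length. The members' windows were richer in G and C, at 60.0% to 75.6% against a median of 52.4% over all windows. The SMAD3 and SMAD4 element CAGACA, searched on both strands, was in none of the 8 and in 17.1% of all windows. The GC box GGGCGG, on either strand, was in all 8 and in 32.7% of all windows. The E-box CANNTG, the element bound by the bHLH factors that ID proteins oppose, was in 3 of the 8 and in 66.2% of all windows.

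Total counts ran from 16204327 to 19859744 reads per library, and replicates differed by more than sampling noise in every group. Plagl1 had 35.5 to 38.4 CPM (read counts scaled to library size with TMM factors and expressed per 1e6 reads) in day 0 controls, 43.9 to 45.8 CPM in day 3 controls and 24.2 to 26.3 CPM in the mutant, at 0.559 times the day 3 control level (edgeR quasi-likelihood test, adjusted p = 7.6e-09). The 10 periosteal markers fixed for the check of the cell label, among them Postn at a mean of 1615 to 5253 CPM per group and Prrx1 at 432 to 615 CPM, were read in every group. Macrophage markers were abundant beside them. The 15 listed summed to 14340 to 14770 CPM at day 0, 20220 to 22200 CPM in day 3 controls and 21260 to 23370 CPM in the mutant. Transcripts come from the whole culture, so fewer cells of a type and less RNA per cell cannot be told apart.

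Control cells were first compared before and after induction. The Id family changed its make-up. Id3 and Id4 rose, Id2 fell, and Id1 was not called. Among the Smads, Smad3 and Smad7 fell to less than 0.5 times their day 0 level, Smad9 and Smad6 rose, and Smad1 and Smad5 were not called. In all, 7 of the 10 members were called (Benjamini-Hochberg adjusted p below 0.05 over all tested genes), 4 higher and 3 lower. Of all tested genes 65.5% were called, 33.1% higher and 32.4% lower, which are 4304 and 4218 genes (3418 and 5403 when scaled by total count alone), so the members' share is close to that of the background. The 7 were also those whose groups did not overlap, against 70.8% of all tested genes. Medium and time in culture changed together in it.

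Id4 (ENSMUSG00000021379, chromosome 13, 48414704 to 48419502, plus strand; gene positions are as deposited, GRCm39) had 7.93, 8.35 and 7.59 CPM at day 0. After induction the control libraries had 48.1, 51.0 and 48.0 CPM. Every induced library thus lay far above every uninduced one, a 6.16-fold rise (log2 fold change 2.62 ± 0.08 SE, edgeR adjusted p = 2.9e-17). This change was larger than that of 96.2% of the tested genes.

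Id3 (ENSMUSG00000007872, chromosome 4, 135870808 to 135873066, plus strand) had 47.9, 52.6 and 51.6 CPM at day 0 and 139, 120 and 129 CPM in induced controls. The groups did not overlap, and the rise was 2.55-fold (1.35 ± 0.07, adjusted p = 1.06e-13). Id3 encodes an inhibitor that pairs with E proteins as ID1 does, and it was the most abundant of the 10 members at day 3.

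Id2 (ENSMUSG00000020644, chromosome 12, 25143798 to 25147139, minus strand) moved the other way. It had 74.0, 81.4 and 83.6 CPM at day 0 and 40.8, 42.0 and 44.1 CPM after induction. Every induced library was below every day 0 library, at 0.531 times their level (−0.91 ± 0.07, adjusted p = 1.26e-10).

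Id1 (ENSMUSG00000042745, chromosome 2, 152578171 to 152579330, plus strand), the Id gene most used as a read-out of BMP signalling, had 10.7, 9.41 and 11.0 CPM at day 0. It had 11.2, 7.88 and 10.6 CPM in induced controls, and these values span those of day 0. The ratio was 0.951 with a 95% interval of 0.788 to 1.15 (adjusted p = 0.647), so a change of over 1.15-fold upwards lies outside the interval.

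**Figure D1:**
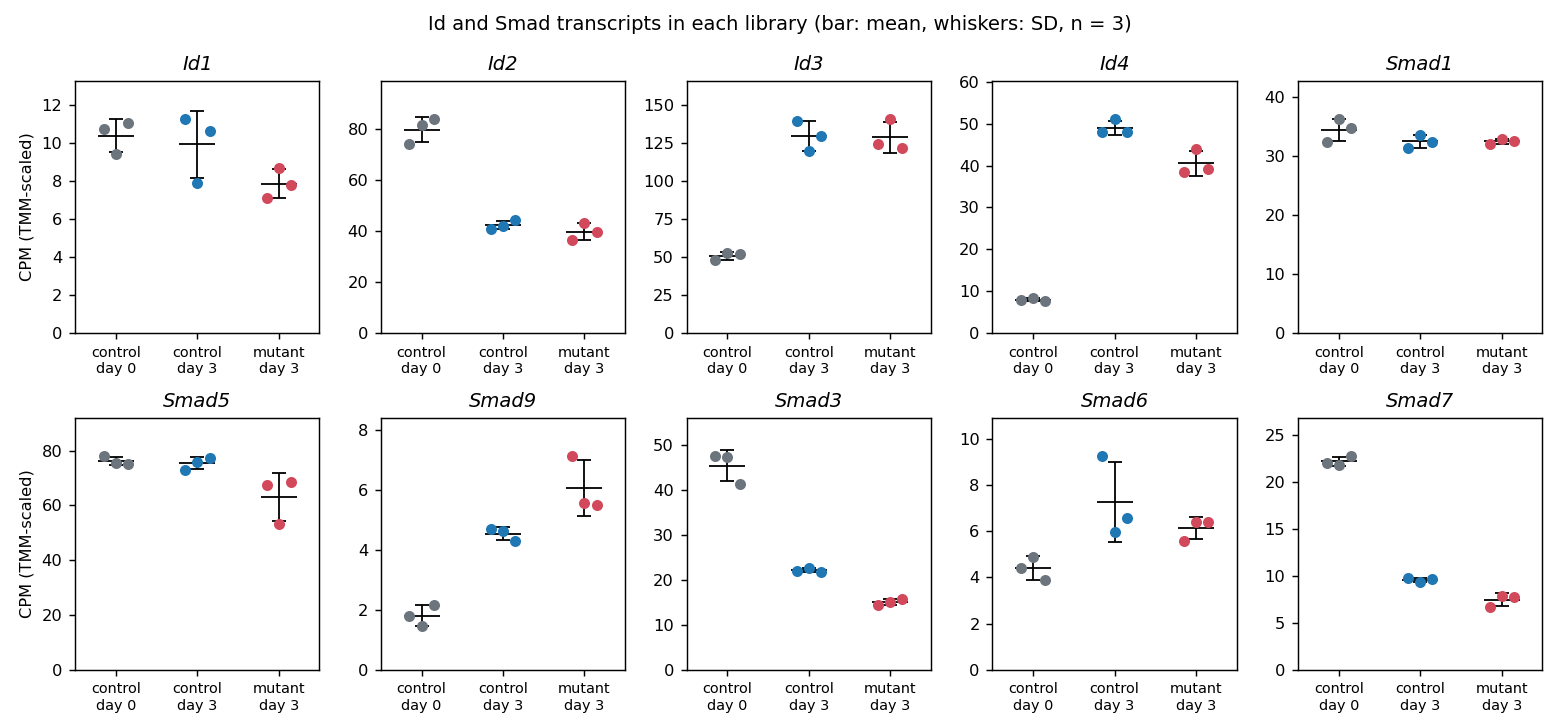
Level of each of the 10 transcripts in each library, in TMM-scaled CPM on axes that start at 0; points are libraries, bars the mean and whiskers the SD of 3 libraries. Id4 stands at 7.59 to 8.35 CPM at day 0 and at 48.0 to 51.0 CPM in day 3 controls, and Smad3 steps down from 45.5 to 22.2 to 15.1 CPM on average.

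Per transcript length, the Id genes added up to 76.5 ± 3.3 deposited FPKM at day 0 and 108 ± 6.0 FPKM in induced controls (mean ± SD, n = 3). FPKM divides the count by gene length and library total, so levels of different genes can be set side by side. It carries no TMM factor. In TMM-scaled CPM the mean Id sum was 148.7 at day 0 and 230.5 in induced controls. Of the summed FPKM, Id2 made up 45.4% and Id3 39.3% at day 0. Id2 at 32.3 to 36.5 FPKM lay above Id3 at 28.5 to 31.0 FPKM in every day 0 library. In induced controls Id3 made up 65.1%, Id2 15.7%, Id4 11.5% and Id1 7.67% of the summed FPKM. Id4 went from 2.88% to 11.5% of that FPKM sum and from the lowest of the 4 levels to the third. With 12.4 ± 0.45 FPKM it then lay above Id1 at 8.34 ± 1.5 FPKM, with no overlap between the libraries of that group. By level, Id3 exceeded 88.2% of tested genes at day 0 and 95.4% at day 3.

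**Figure D2:**
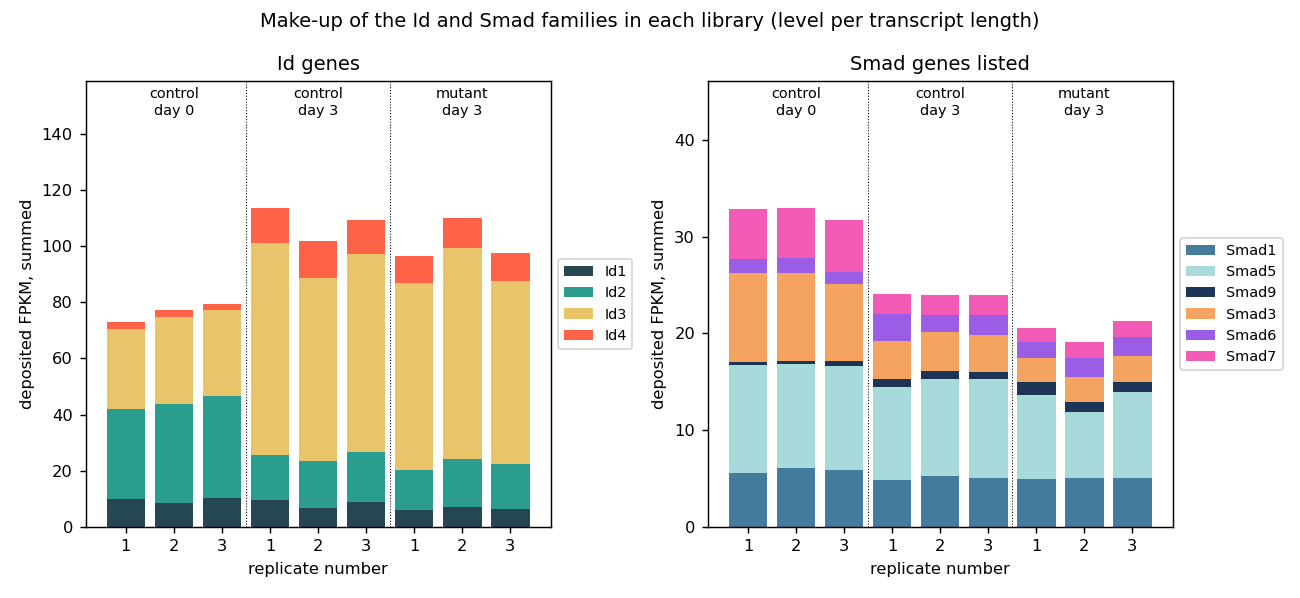
Deposited FPKM of the Id genes (left) and of the listed Smad genes (right), stacked for each of the 9 libraries. Id3 grows from 39.3% to 65.1% of the Id sum on induction, and Smad5 has the highest mean FPKM of the listed Smads in each group.

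Of the receptor-regulated Smads of the BMP branch, Smad5 (ENSMUSG00000021540, chromosome 13, 56850823 to 56890190, plus strand) was the most abundant. It had 78.0, 75.6 and 75.0 CPM at day 0 and 73.0, 76.0 and 77.3 CPM in induced controls. The 2 groups overlapped, with a ratio of 0.990 and an interval of 0.889 to 1.10. Smad1 (ENSMUSG00000031681, chromosome 8, 80065024 to 80126147, minus strand) had 32.4, 36.2 and 34.8 CPM and then 31.4, 33.6 and 32.4 CPM, which also overlap, with a ratio of 0.944 (interval 0.854 to 1.04, adjusted p = 0.30). It was called lower only when libraries were scaled by total count (−0.21, adjusted p = 0.0118), a scaling that moved the median of all genes from 0.01 to −0.11.

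Smad9 (ENSMUSG00000027796, chromosome 3, 54663003 to 54708678, plus strand), the third BMP Smad, was scarce. It had 1.80, 1.45 and 2.14 CPM at day 0, from 26 to 37 reads per library, and 4.68, 4.64 and 4.29 CPM in induced controls. The groups did not overlap and the rise was 2.53-fold (1.34 ± 0.20, adjusted p = 3.23e-06). Per length it made up 2.08% of the summed FPKM of Smad1, Smad5 and Smad9 at day 0 and 5.22% in induced controls.

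Smad3 (ENSMUSG00000032402, chromosome 9, 63554049 to 63665276, minus strand), the listed Smad of the TGF-beta branch, had 47.6, 47.4 and 41.5 CPM at day 0. In induced controls it had 22.1, 22.7 and 21.9 CPM. All 3 were below any day 0 value, at 0.488 times their level (−1.04 ± 0.08, adjusted p = 4.81e-11).

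The inhibitory Smads parted. Smad7 (ENSMUSG00000025880, chromosome 18, 75500600 to 75529006, plus strand) had 22.0, 21.8 and 22.8 CPM at day 0 and 9.80, 9.38 and 9.63 CPM in induced controls. This was 0.432 times the day 0 level with no overlap (−1.21 ± 0.10, adjusted p = 2.22e-10). Smad6 (ENSMUSG00000036867, chromosome 9, 63860358 to 63929341, minus strand), whose product blocks the BMP Smads in particular, had 4.43, 4.90 and 3.88 CPM and then 9.26, 5.98 and 6.59 CPM. The lowest induced value lay above the highest day 0 value, and the rise was 1.65-fold (0.72 ± 0.17, adjusted p = 0.000672). Control day 3 replicate 1 was the high library, and without it the log2 change was 0.51. Per length, Smad6 went from 21.8% to 51.2% of the summed FPKM of Smad6 and Smad7, while that sum went from 6.68 ± 0.04 to 4.29 ± 0.57 FPKM.

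The second comparison asked how mutant cells differed after the same induction. Smad3, Smad7, Id4 and Smad5 were lower in the mutant, and no member was called higher. Id2, Id3 and Smad1 had ratios of 0.939 to 1.00 to control. These 4 of 10 compare with 17.7% of all tested genes called, 9.74% lower and 7.95% higher. The count fell to 2 without control day 3 replicate 2, without control day 3 replicate 3 and without mutant replicate 1. Without control day 3 replicate 2 these were Smad3 and Id1, a gene not called with all libraries. Of the 4, Smad3 alone then kept its call. At an unadjusted p below 0.05 there were 5 members lower and 1 higher in edgeR, and DESeq2 also called 4 lower and none higher. In 5 of the 10 the groups did not overlap, as in 33.4% of all tested genes.

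Smad3 had 14.5, 15.1 and 15.7 CPM in the mutant against 22.1, 22.7 and 21.9 CPM in day 3 controls. Every mutant library was below every control library, at 0.681 times the level (−0.56 ± 0.08, edgeR adjusted p = 4.99e-05). It was the 1 member called under every alternative, with log2 changes from −0.58 to −0.53, and its change exceeded that of 91.5% of tested genes. Smad7 had 6.64, 7.91 and 7.78 CPM in the mutant, all below the control values of 9.38 to 9.80 CPM, at 0.776 times the level (−0.37 ± 0.11, adjusted p = 0.0239). That call was lost in 5 of 15 alternatives, namely with only these 2 groups in the fit (adjusted p = 0.0507) and when control day 3 replicate 1, 2 or 3 or mutant replicate 1 was left out (0.0506 to 0.116).

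Id4 had 38.4, 43.9 and 39.2 CPM in the mutant, below the 48.0 to 51.0 CPM of control cells in all 3 libraries. The ratio was 0.826 (−0.28 ± 0.07, adjusted p = 0.0079), and the call was lost without control day 3 replicate 2 (adjusted p = 0.0509) and without mutant replicate 1 (0.0547). Smad5 had 67.6, 53.1 and 68.7 CPM in the mutant against 73.0 to 77.3 CPM in day 3 controls. The groups did not overlap, at 0.837 times the level (−0.26 ± 0.08, adjusted p = 0.0204), but mutant replicate 2 stood apart at the low end. Without it the log2 change was −0.15 (adjusted p = 0.0978), and the call was also lost without control day 3 replicate 2 (0.0738) and replicate 3 (0.0788). Bmpr1a, which encodes a type I BMP receptor, was likewise lowest in mutant replicate 2, with 80.6 CPM against 103 and 104 CPM in the other mutant libraries. That library stood apart over the tested genes as a whole, not in these 2 alone. The chi-square of the counts over its degrees of freedom was 6.61 against replicate 1 and 11.5 against replicate 3. Between replicates 1 and 3 it was 4.37.

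Id1 had 7.12, 8.66 and 7.78 CPM in the mutant and 11.2, 7.88 and 10.6 CPM in day 3 controls, so the groups overlapped in control replicate 2. The ratio was 0.796 (interval 0.653 to 0.970) and the adjusted p 0.102. Without control day 3 replicate 2 the log2 change went from −0.33 to −0.48 and was called (adjusted p = 0.0225). Smad9 was the 1 member with all mutant libraries above the controls, at 7.12, 5.54 and 5.49 CPM against 4.68, 4.64 and 4.29 CPM. It did not pass the test (ratio 1.33, interval 1.05 to 1.68, adjusted p = 0.0864). Smad6 had 5.57, 6.41 and 6.40 CPM in the mutant, within reach of the control values, with a ratio of 0.843 (interval 0.669 to 1.06). The 3 remaining members overlapped with control. The ratio was 0.994 for Id3 (interval 0.905 to 1.09), 0.939 for Id2 (0.845 to 1.04) and 1.00 for Smad1 (0.904 to 1.11). Id3 had 124, 140 and 121 CPM, Id2 36.2, 43.1 and 39.7 CPM and Smad1 32.1, 32.9 and 32.5 CPM in the mutant.

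**Figure D3:**
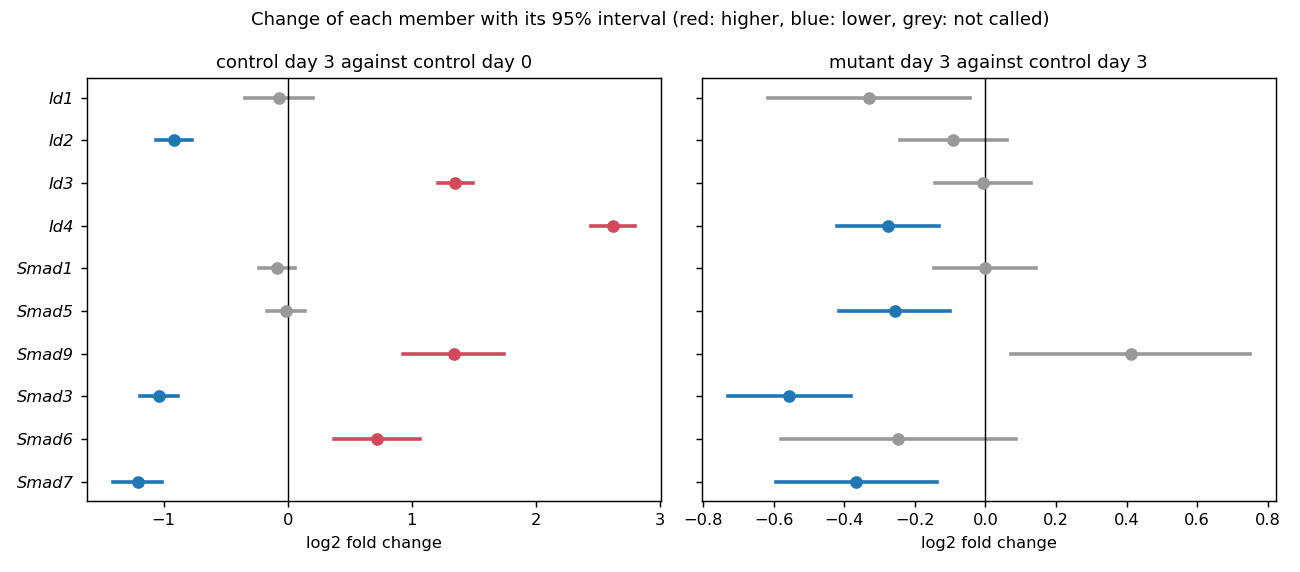
Log2 fold change of each member with its 95% interval in control day 3 against control day 0 (left) and mutant day 3 against control day 3 (right); the 2 panels have different scales and share the day 3 control libraries. On the left 7 intervals lie clear of 0, from −1.21 for Smad7 to 2.62 for Id4; on the right the called members lie between −0.56 and −0.26.

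The 2 contrasts share the day 3 controls, so the values stand side by side with no measure of likeness. Smad3 had −1.04 on induction and −0.56 in the mutant, and Smad7 −1.21 and −0.37. Id4 had 2.62 and −0.28, with the mutant still 5.09-fold above day 0 (2.35 ± 0.09, adjusted p = 2.28e-16). Set against day 0, induced mutant cells had 9 of the 10 members called, 4 higher and 5 lower, where 68.3% of all tested genes were called, 33.7% higher and 34.7% lower. Those counts of all genes were 4382 and 4512 (3425 and 5722 when scaled by total count). The groups of the 9 did not overlap, as in 70.4% of all tested genes. Smad3 was at 0.332 and Smad7 at 0.336 times the day 0 level, and Smad9 was 3.36-fold higher. Id1 was lower there (0.757 times, adjusted p = 0.0124, lost without mutant replicate 1 at 0.061), as was Smad5 (0.828 times, adjusted p = 0.00293). Smad6 was 1.39-fold higher (adjusted p = 0.0182), lost without control day 0 replicate 3 (0.0746) and with total count scaling (0.0876). In CPM the group means of Id1, Id2, Smad1, Smad3, Smad5 and Smad7 were highest at day 0 and lowest in the mutant. Both steps of that order passed the test for Smad3 and Smad7, 1 step passed for Id2 and Smad5, and neither for Id1 and Smad1.

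The lists of other pathway genes are ordered by role, with the median log2 fold change of all tested genes at 0.01 for induction and 0.0014 for the mutant contrast. Of all tested genes 65.5% were called on induction and 17.7% in the mutant contrast. On induction the share called was 50% of the receptors. It was 66.7% of the BMP ligands, 68.4% of the Smad partners and 70% of the other BMP-induced genes, close to the background. The remaining lists ran from 84.6% to 100%. In the mutant contrast the lists ran from 26.3% to 66.7%. Of 9 BMP ligand genes 6 were tested. On induction 2 rose and 2 fell (median 0.30), among them Gdf6, a BMP-class ligand gene of joints and skull, which rose 3.13-fold from 3.31 to 10.3 CPM. In the mutant 2 were higher and 2 lower (median −0.32), with Gdf6 at 0.503 times control (adjusted p = 4.59e-06). Of 8 TGF-beta and activin ligand genes 7 were tested, with 1 rising and 5 falling on induction (median −0.35) and 1 higher and 3 lower in the mutant (median −0.51). Tgfb3 fell from 148 to 72.3 CPM and was at 37.5 CPM in the mutant, and Inhba, which encodes the activin A subunit, fell from 378 to 87.8 CPM and was at 47.2 CPM in the mutant.

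Receptor genes were called in both directions. Of 13 listed 12 were tested, and on induction 4 rose and 2 fell (4 and 5 when scaled by total count), while in the mutant 1 was higher and 5 were lower, although the median was slightly above 0 (0.06). Tgfbr1, the type I TGF-beta receptor that phosphorylates SMAD3, fell to 0.421 times day 0 and was at 0.799 times control in the mutant. Acvrl1, which encodes the receptor ALK1, rose 2.05-fold and was a further 1.28-fold higher in the mutant. All 10 BMP antagonist genes were tested and called on induction, 7 higher and 3 lower (median 0.83), and in the mutant 1 was higher and 3 lower, again with a median above 0 (0.06). Chrdl1, a chordin-like antagonist, rose 7.90-fold from 10.6 to 83.9 CPM and was 2.27-fold higher in the mutant. Nog, which encodes noggin, rose 2.31-fold and was at 0.330 times control in the mutant. It was scarce, at 0.967 CPM at day 0, 2.2 CPM in induced controls and 0.738 CPM in the mutant. Those means rest on 54, 121 and 38 reads summed over the 3 libraries of each group.

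Of 20 listed Smad partners and modulators 19 were tested. On induction 1 rose and 12 fell (median −0.36), and in the mutant 5 were lower and none higher (median −0.08), 3 without any 1 of the day 3 control libraries. At an unadjusted p below 0.05 the mutant counts were 5 lower and none higher, and DESeq2 called 4 lower and none higher. Smad2, the other TGF-beta Smad, fell to 0.761 times day 0 (adjusted p = 3.05e-06) and was at 1.01 times control in the mutant (adjusted p = 0.886), unlike Smad3 in the second value. Smad4 was at 1.02 times day 0 (adjusted p = 0.722) and at 0.884 times control in the mutant (adjusted p = 0.0406). Skil, which encodes the Smad corepressor SnoN, was at 0.461 and then 0.713 times.

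Genes known to be induced by TGF-beta mostly fell on induction. All 12 listed were tested, of which 2 rose and 9 fell on induction (median −0.64) and 1 was higher and 6 were lower in the mutant (median −0.40). Ccn2, which encodes a matricellular growth factor, went from 936 to 188 CPM and was at 120 CPM in the mutant. The exceptions included Col3a1, a collagen gene, which rose 2.34-fold, and Timp1, a protease inhibitor gene, 1.24-fold higher in the mutant. Of 12 other BMP-induced genes 10 were tested. On induction 4 rose and 3 fell (median 0.17), with Atoh8, a bHLH gene induced by BMP, 4.64-fold and Msx1, a homeobox gene, 3.42-fold higher. In the mutant 5 were lower and none higher (median −0.40), and the edgeR counts at an unadjusted p below 0.05 were 6 lower and none higher (DESeq2 4 and none). Atoh8 (0.970 times, adjusted p = 0.809) and Msx1 (1.02 times, adjusted p = 0.916) did not pass in the mutant, while Runx2 was at 0.587 and Sp7, an osteoblast transcription factor gene, at 0.502 times control. Some genes are in 2 of these lists.

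**Figure D4:**
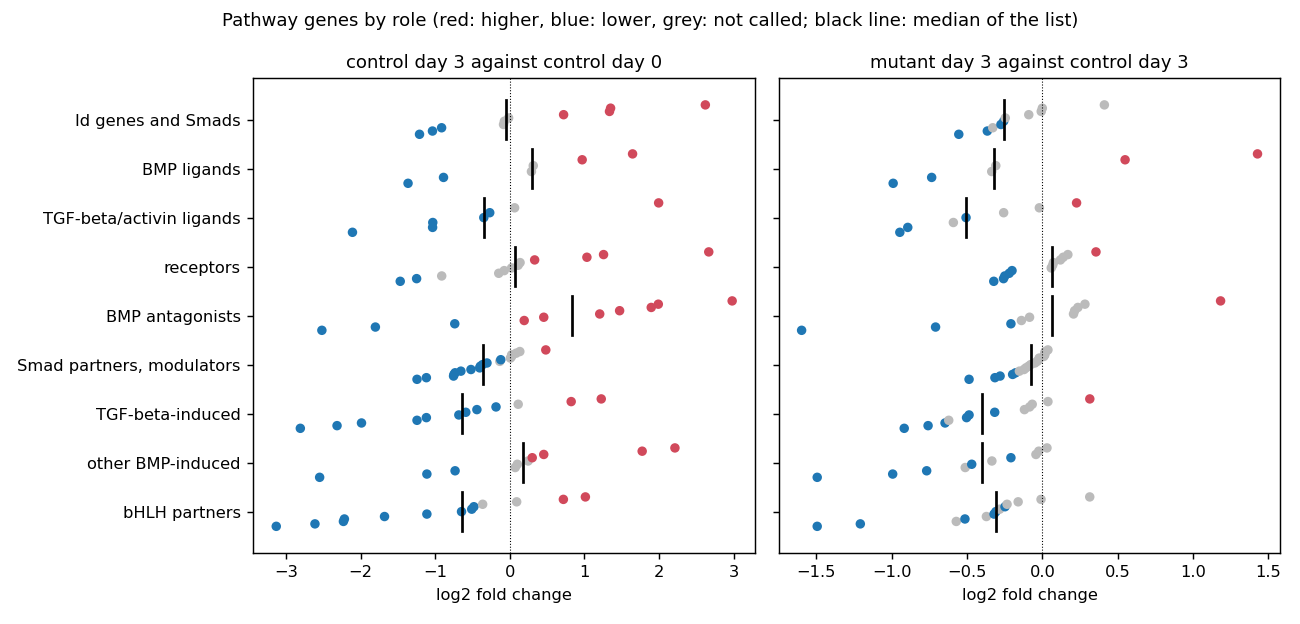
Log2 fold change of each tested gene of the pathway lists, by role, on induction (left) and in the mutant against day 3 controls (right); each point is a gene and the black line the median of its list. The TGF-beta-induced list has medians of −0.64 and −0.40, and the Id genes and Smads spread from −1.21 to 2.62 on induction.

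The listed genes of bHLH factors mostly fell on induction. This count depends on the make-up of the list. It holds E proteins and tissue factors beside Notch target genes such as Hes1, and not every listed factor is an established ID partner. Atoh8, a bHLH gene that rose 4.64-fold on induction, is not in it. Of 18 listed 13 were tested, of which 2 rose and 9 fell on induction (median −0.65) and 6 were lower and none higher in the mutant (median −0.31; edgeR counts at an unadjusted p below 0.05 were 7 lower and none higher, and DESeq2 called 5 and none). The E protein genes, whose products are the main partners of ID proteins, all fell on induction. Tcf4 was at 0.703, Tcf12 at 0.717 and Tcf3 at 0.639 times day 0, with adjusted p-values of at most 2.47e-07. In the mutant Tcf4 (0.807 times, adjusted p = 0.000297) and Tcf12 (0.842 times, adjusted p = 0.0055) were lower, and Tcf3 was at 0.994 times (adjusted p = 0.949). Twist1, a bHLH gene of jaw mesenchyme, had 18.4 to 20.2 CPM at day 0, 18.8 to 23.0 CPM in induced controls and 16.2 to 20.4 CPM in the mutant. Hes1, a Notch target gene, fell to 0.164 times day 0. The 2 that rose on induction were Hand2 (1.65-fold) and Msc (2.02-fold).

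Markers of other cells moved beside these genes. Of all tested genes 65.5% were called on induction and 17.7% in the mutant contrast. On induction the share called was 50% of the tested endothelial and 80% of the periosteal markers. It was 100% of the tested macrophage, smooth muscle and osteoclast markers. In the mutant contrast the shares ran from 37.5% for endothelium to 80% for periosteum. Id1, Id3 and Smad6 are also expressed in endothelium, of which 12 markers summed to 17.7 to 23.4 CPM at day 0, 7.57 to 8.22 CPM in induced controls and 10.8 to 11.3 CPM in the mutant. Of 8 tested, 1 rose and 3 fell on induction (2 called without control day 0 replicate 3 or control day 3 replicate 1 or 3), and 2 were higher and 1 lower in the mutant. The markers did not move together. Vwf, which encodes von Willebrand factor, went from 8.65 to 0.522 CPM on induction and Ptprb, a receptor phosphatase gene, from 6.92 to 1.05 CPM. In the mutant Ptprb was lower still at 0.367 CPM (adjusted p = 0.00827), and Vwf (0.711 times) and Kdr, a VEGF receptor gene (0.875 times), did not pass. Cdh5, which encodes VE-cadherin, was higher there, at 1.76 CPM against 0.519 CPM in day 3 controls. So was Emcn, 2.95-fold, at 1.49 against 0.496 CPM. Both are near the floor, with 91 against 28 reads for Cdh5 and 77 against 27 for Emcn, each summed over 3 libraries. Cldn5 had no read in either control group. Of the 15 macrophage markers 11 rose and 4 fell on induction, and 8 were higher and none lower in the mutant (4 with total count scaling and 3 to 5 without control day 3 replicate 2 or 3 or mutant replicate 1 or 2; at an unadjusted p below 0.05, 10 higher and none lower; DESeq2 8 higher and none lower). Lyz2, the most abundant of them, had a mean of 8598 CPM at day 0 and 12940 CPM in induced controls. Adgre1 went from 636 to 1754 CPM and C1qa from 373 to 919 CPM. The 4 that fell were Mrc1 (1590 to 1088 CPM), Csf1r (800 to 541 CPM), Ptprc (320 to 271 CPM) and Cx3cr1, a chemokine receptor gene (83.4 to 0.0687 CPM). The 10 smooth muscle and pericyte markers summed to 2722 to 2800, 773 to 878 and 525 to 615 CPM in the 3 groups. Of 9 tested, 2 rose and 7 fell on induction, and 1 was higher and 5 lower in the mutant, with Acta2 at 0.279 and then 0.687 times. Of 4 tested osteoclast genes out of 8, 3 rose and 1 fell on induction, and 2 were higher and 1 lower in the mutant (1 called without control day 3 replicate 2 or 3 or mutant replicate 1). Of the 10 periosteal markers 7 rose and 1 fell on induction, and 2 were higher and 6 lower in the mutant. Ctsk, whose promoter drives Cre in the mutant, is in both the osteoclast and the periosteal list and is counted in each. It rose 1.66-fold on induction and was at 0.816 times control in the mutant (edgeR adjusted p = 0.001).

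The 4 Y-linked genes fixed as a check summed to 278 to 283 CPM at day 0, 260 to 282 CPM in induced controls and 91.6 to 108 CPM in the mutant, and all 4 were lower in the mutant. The genotype and the make-up of the cultures by sex of the animals cannot be told apart in the mutant contrast. The part that any of these cell markers or Y-linked genes plays in the values of the Id and Smad genes was not tested.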

How the data were processed

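The submitters' processing notes name HISAT2, HTSeq, cutadapt and the build GRCm39. Versions, annotation release and strand setting: not given in the sources used. Per the labels' protocols RNA was isolated with TRIzol and libraries were prepared with an NEBNext Ultra II kit. The authors deposited unnormalized whole counts, which were tested here. The FPKM values deposited beside them equal the count over gene length and library total. They were used for levels between genes and for family sums and shares, and carry no TMM factor. Any 3 reads correspond to 0.146 to 0.186 CPM, for counting error only.

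Genes passing filterByExpr (minimum count 10, by group) were fitted in edgeR 4.0.16 (R 4.3.3) with TMM factors (0.960 to 1.07) and 1 mean per group over all 9 libraries, and p-values were adjusted over the 13013 genes. Standard errors are the log2 fold change over the root of F, and intervals are at 95%. CPM here uses those factors. Alternatives were DESeq2 1.42.0, other scalings, no filter, only the groups compared, a block by replicate number and each library left out. Since the labels do not state whether a group's libraries are from different animals or cultures, p-values reflect the spread among these libraries alone, and it may be technical. No other gene of the table overlaps a member. The members and lists were chosen with earlier results of these data known. The rule for named genes was every member, Plagl1, at most 4 members of each other list with the smallest p, the 2 most abundant markers of other cell types and the 3 nearest profiles per member. Other genes named as examples were chosen after their values were seen. No set test was made. The values of 1 gene of a pathway list are not reported here.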

Additional observations from a re-analysis of the deposited data

How the results depend on the processing

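Over 15 alternatives, the induction contrast kept its 7 called members in each, with Smad1 as an 8th under total count scaling. In the mutant contrast the members called ranged from 2 to 4 when a library was left out, and all genes called from 1474 to 2953; only the 2 groups compared gave 3 members. Of the single log2 fold changes of members, 258 stayed on their side of the threshold when a library was left out, 11 lost and 1 gained the call. Under the other settings 176 stayed, 2 lost and 2 gained it, and no called change reversed its sign. Changes of sign among values not called were counted as staying. They occurred for Id1 and Smad5 on induction and for Id3 and Smad1 in the mutant contrast. The members that lost a call were Smad7, Smad5 and Id4 in the mutant contrast and Id1 and Smad6 in mutant against day 0; the cause was not tested. Mutant libraries varied more than the others (biological coefficient of variation 0.0714 against 0.0425 and 0.0494). The pairs that differed most were those with mutant replicate 2, at a chi-square over degrees of freedom of 6.61 and 11.5. Mutant replicates 1 and 3 were at 4.37, within the 3.57 to 4.50 of day 0 controls. The deviations of same-numbered libraries correlated at −0.08 to 0.03, and those of libraries with different numbers at −0.105 to 0.117. No shared deviation by replicate number was thus seen. With 3 libraries per group this cannot decide whether libraries were paired by animal or culture. With the replicate block the members called were 7 on induction, 4 in the mutant contrast and 9 against day 0, and genes called 8390, 2050 and 8742 against 8522, 2301 and 8894 without it. Depth limits Smad9 most, with 26 to 120 reads per library.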

Other observations

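The genes whose profile over the 9 libraries lay nearest to a member were found by the root mean square difference of centred log2 CPM, over all tested genes with a named symbol. For Smad3 they were the atypical cadherin gene Fat1 (0.0591), the non-muscle myosin gene Myh10 (0.0623) and the proline synthesis gene Aldh18a1 (0.0701). Their log2 changes were −1.01, −1.03 and −1.02 on induction and −0.52, −0.54 and −0.54 in the mutant, beside −1.04 and −0.56 for Smad3. For Smad7 the nearest was Ajuba, a LIM-domain protein gene (0.0426), with −1.16 and −0.37. For Id2 they were Gpr137b (0.0496), the growth-promoting transcription factor gene Myc (0.0637) and Srsf7 (0.0648). Their log2 changes in the mutant were −0.03, −0.04 and −0.05. On induction Myc had −0.93 and Srsf7 −0.91, and Gpr137b fell more than either. For Id3 they were Marcksl1 (0.0646), the macrophage marker C1qa (0.071) and Tnip1 (0.0793). Their log2 changes were 1.245, 1.301 and 1.313 on induction and 0.049, 0.023 and 0.155 in the mutant. For Id4 they were Nrbp2 (0.103), the histocompatibility gene H2-Q4 (0.104) and the oxidase gene Nox4 (0.131). Differences between the 3 groups carry most of these profiles, so many genes lie close to each member.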
